A study of Neurospora crassa with 2 samples.

Results

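Translation factors are the proteins that load ribosomes onto messenger RNA, carry them along it and release the finished peptide. The 29 genes described here were chosen by name: their deposited description matches a translation initiation, elongation or peptide chain release factor and not a transcription factor. They are 29 of 9454 genes in the table. All 29 had at least 5 RPKM (reads divided by gene model length in kilobases and by the library total) in at least 1 library, the level from which a gene was considered, so none was lost to that filter. All 29 identifiers were found in the RefSeq gene table of assembly NC12, but only tef-1, cot-3 and un-10 have a symbol there, and the others are called by their NCU number and description.

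The study sequenced polyadenylated RNA from hyphae of 2 strains of Neurospora crassa, a filamentous ascomycete fungus: a wild type and a upf1 knockout. Both strains were kept on minimal slants for 2 weeks and then cultured under constant light in 2% glucose medium for 2 days, without further treatment. RNA from 3 flasks was pooled into 1 library per strain. How the knockout was made, and in which genetic background, is not stated in these sources. A single library stands for each strain, so differences have no replicate check and no p-value is given. The 95% intervals beside ratios are exact Clopper-Pearson intervals of the split of a gene's reads and reflect counting error alone and not the variation between cultures.

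Initiation begins with the small ribosomal subunit, which eIF1, eIF1A, eIF3 and the GTPase eIF2 hold ready to scan, and which eIF4E and its partners bring to the cap. Elongation runs on eEF1A, which delivers aminoacyl-tRNA, eEF2, which moves the ribosome by a codon, and in fungi eEF3, an ATPase that frees the exit site. Release factors read the stop codon. UPF1 is an RNA helicase of nonsense-mediated mRNA decay, a pathway that acts on messages whose ribosomes stop too early, and in yeast and mammals it binds the release factors eRF1 and eRF3. Mitochondria translate with a separate set of bacterial-type factors encoded in the nucleus.

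The knockout library held 56306422 reads in the table and the wild-type library 28189643. The upf1 gene (symbol prd-6) stood at 2.78 RPKM in knockout hyphae and 22.6 in wild-type hyphae, in the direction of the labels. Among 6 conidial marker genes that could mark another cell type, 4 exceeded 2-fold on the higher side and 2 on the lower, with a summed level of 2529 against 16070 RPKM that is mostly eas. Of the sexual-tissue markers asd-1 was higher and poi-2 lower, while matA-1 had 0 reads in both libraries. The hyphal gene hex-1 stood at 602 against 1908 RPKM. The part of these differences in the values below was not tested, and a smaller number of cells of a type and less RNA per cell cannot be told apart.

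The 29 translation factors divided by kind. The 7 genes of cytosolic-type elongation and the 5 of eIF3 all had ratios below 1 in these libraries, but only 1 of these 12, tef-1, was at least 2-fold lower. The 5 genes with mitochondrial or bacterial-type names had ratios above 1, with 3 at least 2-fold higher. Of the 5, NCU06721 was just below 1 once gene model length was accounted for. NCU07021, the highest of the 5, was grouped by its numbering and may be a cytosolic factor. Initiation factor 5 had the highest ratio of all members, 3.47-fold. On the scale of log2((knockout RPKM + 1)/(wild-type RPKM + 1)), 10 members were above 0 and 19 below, with a median of -0.22, against a median of 0.15 over all 7367 eligible genes. Of these 7367 genes, 4374 were above 0 and 2993 below. At least 2-fold higher were 4 members (13.8%), beside 16.5% of all eligible genes, and at least 2-fold lower was 1 member (3.45%), beside 5.52%. Neither share is far from the background. The choice of scaling moves the median of all genes by about as much as it lies from 0: with TMM scaling, which aligns the bulk of the genes, it was -0.020, and the higher side then made up 62.4% of all genes past 2-fold in place of 74.9%. With that scaling 2 members were higher and 3 lower, beside 12.9% and 7.79% of all genes.

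**Figure D1:**
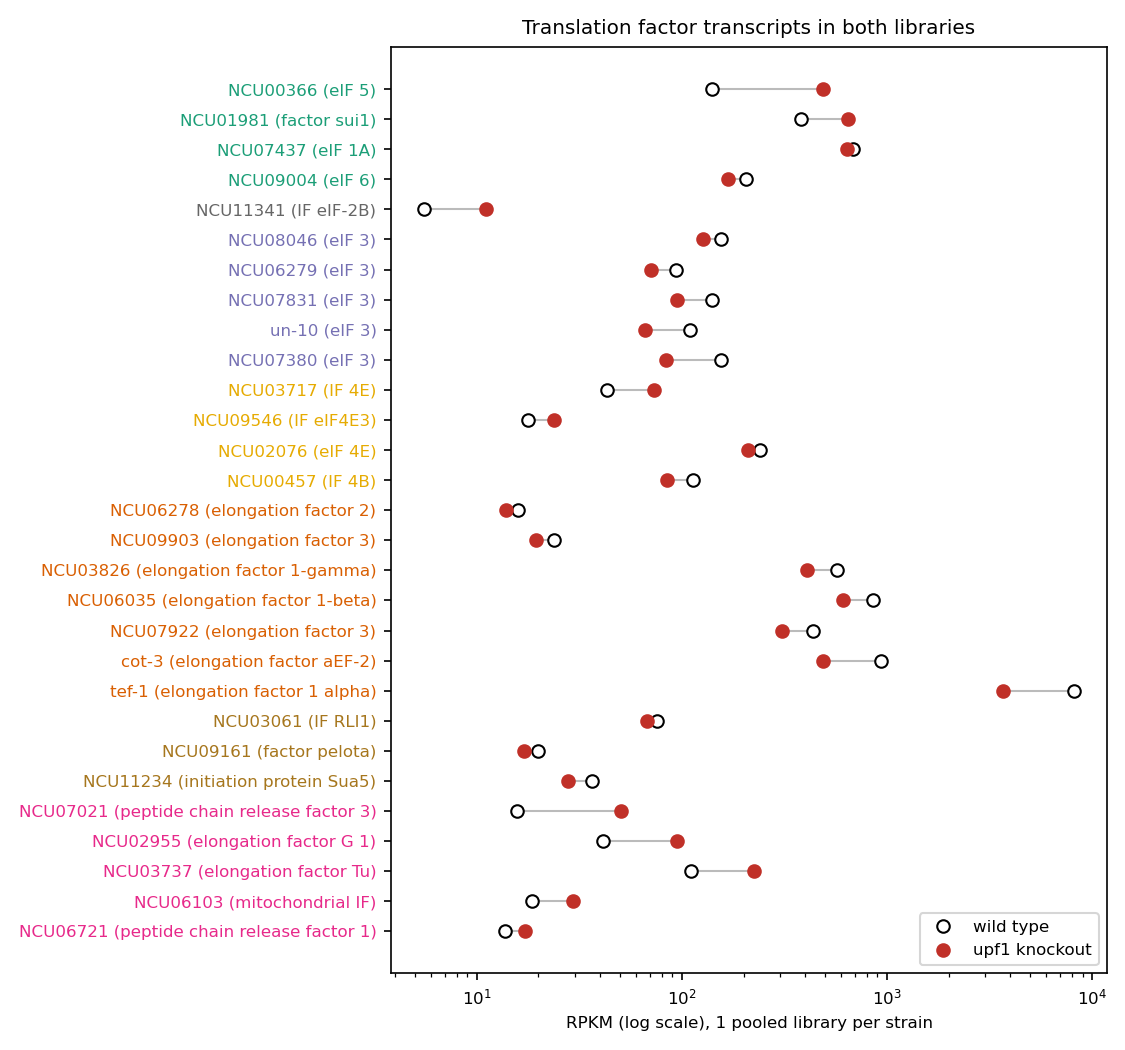
Level of each translation factor transcript in RPKM (log axis) in the wild-type library (open circles) and the upf1 knockout library (red circles), 1 pooled library each, grouped by role in the colour of the names. The gene of eIF5 stands at 487 against 140 RPKM and tef-1 at 3705 against 8223. The 5 factors with bacterial-type or mitochondrial names at the bottom all have the knockout on the right.

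The members span a wide range of abundance. In the wild-type library they ran from 5.51 RPKM for the eIF-2B gene to 8223 for tef-1, with a median of 111 RPKM, where the median of all eligible genes was 23.2. In the knockout library the range was 11.1 to 3705 RPKM and the median 84.9, against 26.7 for all eligible genes. Of the 29, 22 lay above the median gene in the wild type and 23 in the knockout. Every member had at least 336 wild-type reads and 1366 knockout reads, and the counting interval of the ratio excluded 1 for all 29 under the deposited scaling. That interval leaves out the variation between cultures, and the share of all genes with such an interval was not computed.

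Elongation took the most reads of all roles, and all of its cytosolic-type genes were lower in the knockout library. tef-1 encodes eEF1A, the GTPase that carries aminoacyl-tRNA to the ribosome, and is placed at 1711641 to 1713696 of supercontig 1, plus strand (coordinates as deposited; genome build not given in the sources used here). This gene had 367751 reads (3705 RPKM) in knockout hyphae and 404272 reads (8223 RPKM) in wild-type hyphae, although the knockout library is the larger. That is 2.22-fold lower (2.21 to 2.23), and its rank by RPKM among all genes went from 5 to 8. No other member was among the 100 most abundant genes of either library.

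The nucleotide exchange complex that recharges eEF1A was lower by less. NCU06035, eEF1-beta, which carries the exchange activity, stood at 609 RPKM in knockout hyphae and 856 in wild-type hyphae, 1.41-fold lower (1.38 to 1.43). NCU03826, eEF1-gamma, which holds that complex together, stood at 408 and 570 RPKM, 1.40-fold lower (1.38 to 1.42). By RPKM these subunits kept their proportion to each other, 1.490 RPKM of beta per RPKM of gamma in knockout hyphae and 1.502 in wild-type hyphae. Once gene model length was accounted for, their log2 ratios lay further apart, at -0.83 for beta and -0.53 for gamma. The RPKM of tef-1 over that of eEF1-beta was 6.09 in knockout hyphae and 9.60 in wild-type hyphae.

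cot-3 (supercontig 4, plus strand, 2178986 to 2182428) is annotated as elongation factor aEF-2 and encodes eEF2, the translocase. It stood at 486 RPKM in knockout hyphae and 941 in wild-type hyphae, 1.94-fold lower (1.92 to 1.95), and its log2 ratio of -0.95 lay just short of 2-fold, which it passed with TMM scaling (-1.13). A second gene named elongation factor 2, NCU06278, had 13.9 and 15.9 RPKM, so cot-3 exceeded it 59.0-fold in the wild type and 35.0-fold in the knockout. The table does not say what this minor gene does.

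Elongation factor 3 is likewise annotated at a major and a minor gene. NCU07922, the major one, stood at 307 RPKM in knockout hyphae and 434 in wild-type hyphae, 1.42-fold lower (1.40 to 1.43). NCU09903 had 19.4 and 23.7 RPKM, 1.22-fold lower (1.16 to 1.28), and it is the gene of the set nearest to the end of a supercontig, 9603 bp from the start of supercontig 1 with 2 table genes before it. In both pairs the major gene had the lower ratio. How reads shared between such relatives were assigned is not given, so the minor genes are uncertain.

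All 7 genes of cytosolic-type elongation thus had a negative log2 ratio, from -1.15 for tef-1 to -0.19 for NCU06278, with a median of -0.49, and all 7 stayed below 0 in the 9 other settings tried, except that NCU06278 is lost to a filter at 20 RPKM. They took 2.14% of the wild-type table reads (binomial interval 2.14 to 2.15) and 1.10% of the knockout reads (1.10 to 1.11). The 29 translation factors together took 2.67% and 1.73%, and tef-1 alone made up 53.6% of their reads in the wild type and 37.8% in the knockout. Without tef-1 the share of the other members was 1.24% in the wild type and 1.08% in the knockout, so tef-1 carries most of the difference in the summed share.

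**Figure D2:**
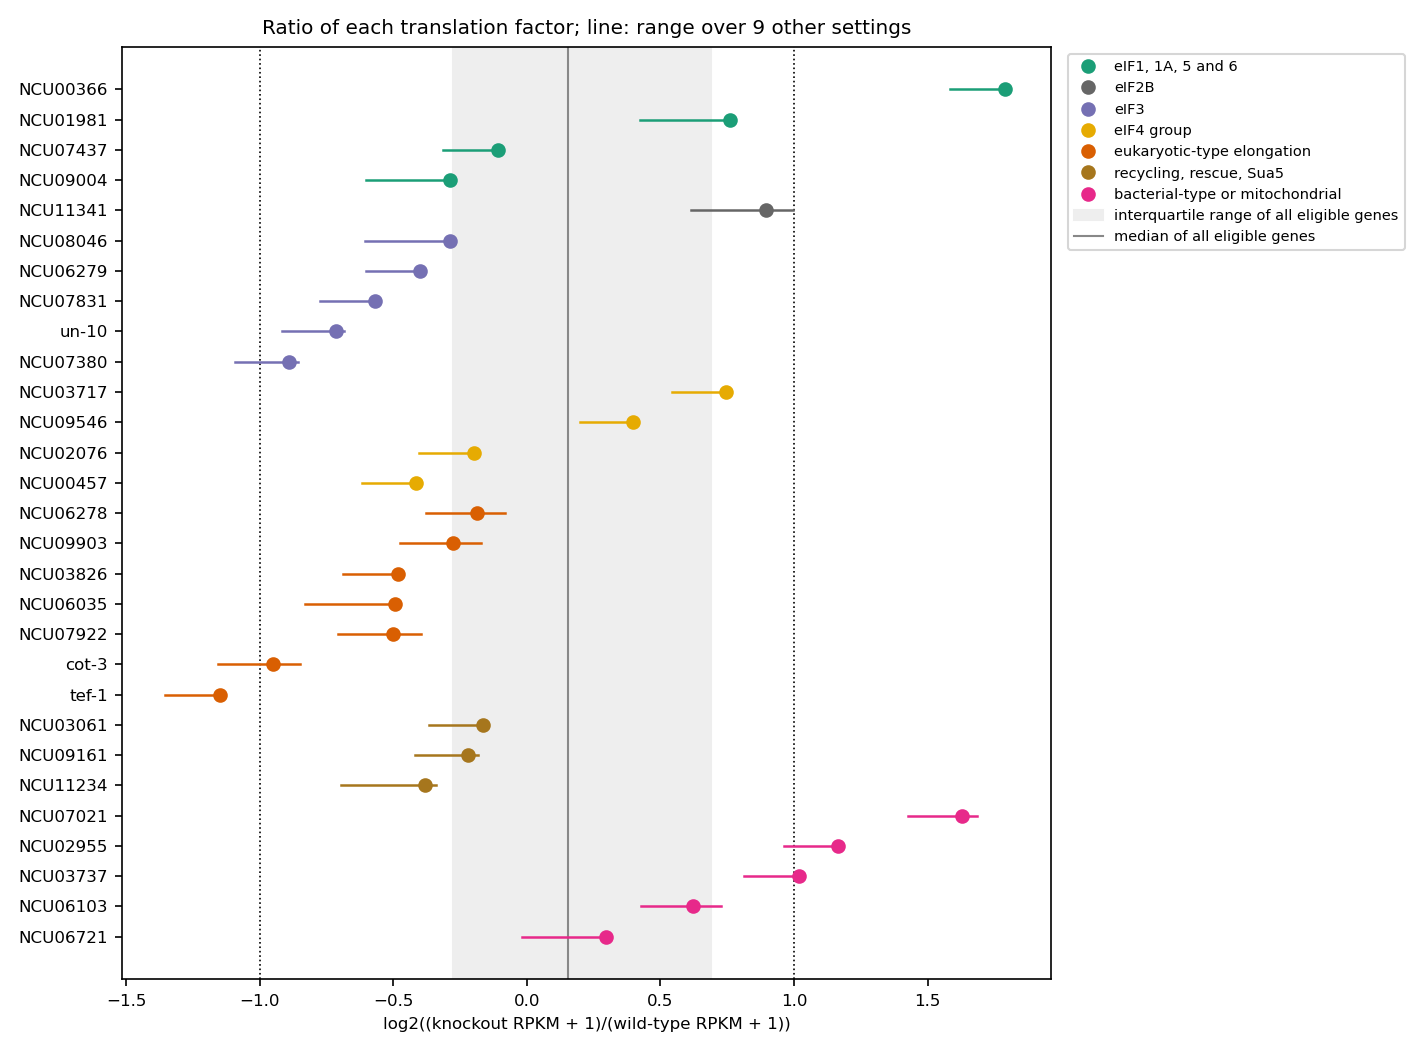
log2 ratio of each translation factor, knockout over wild type with a pseudocount of 1 RPKM (points), coloured by role, with the range over the main and 9 other settings (lines), the interquartile range of all eligible genes (grey band, -0.28 to 0.69) and 2-fold either way (dotted). Elongation and eIF3 genes lie left of 0, and NCU00366, NCU07021, NCU02955 and NCU03737 lie at or beyond the 2-fold line on the right, of which NCU02955 and NCU03737 cross back in some settings.

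Among initiation factors the gene of eIF5 had the largest ratio. eIF5 is the GTPase-activating protein that makes eIF2 hydrolyse its GTP once a start codon is found. Its gene NCU00366 (supercontig 3, plus strand, 3592382 to 3594739) had 68552 reads (487 RPKM) in knockout hyphae and 9776 reads (140 RPKM) in wild-type hyphae. It was 3.47-fold higher (3.40 to 3.55) with a log2 ratio of 1.79, the highest of the 29, and it went from rank 682 to rank 178 by RPKM. Its ratio ran from 1.58 with DESeq2 size factors to 1.80 with reads over the table reads, so it stayed past 2-fold throughout. No other gene model overlaps it.

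The other factors of start-site selection did not share that ratio. NCU01981, named translation factor sui1 after the yeast gene of eIF1, which guards against wrong start codons, stood at 648 RPKM in knockout hyphae and 382 in wild-type hyphae, 1.70-fold higher (1.66 to 1.73). With a log2 ratio of 0.76 it was just above the interquartile range of all genes, it was 0.42 once the median of its length bin was subtracted, and it overlaps its neighbour NCU01982 by 75 bp on the same strand. NCU07437, eIF1A, which works beside eIF1 on the small subunit, had 636 and 686 RPKM, 1.08-fold lower (1.06 to 1.09). NCU09004, eIF6, which keeps the large subunit from joining too early, had 169 and 206 RPKM, 1.22-fold lower (1.19 to 1.25).

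The proportions among these factors differed accordingly. In the wild-type library there were 0.204 RPKM of eIF5 transcript for each RPKM of eIF1A transcript, and in the knockout 0.766. For eIF1 over eIF5 the RPKM ratio was 2.73 in the wild type and 1.33 in the knockout. These are proportions of transcripts per gene model length within a library, which library scaling does not touch. Centring by length does move them. The log2 ratios were then 1.74 for eIF5, 0.42 for eIF1 and -0.30 for eIF1A, in the same order as before.

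eIF3 is the large scaffold of the small subunit, and 5 genes are annotated with it, without naming the subunit. un-10, which has the RefSeq synonym eif3b, stood at 66.4 RPKM in knockout hyphae and 110 in wild-type hyphae, 1.65-fold lower (1.61 to 1.70). NCU07380 had the lowest ratio of the 5, with 83.5 and 155 RPKM, 1.86-fold lower (1.81 to 1.91). Its log2 ratio of -0.89 passed 2-fold with TMM scaling (-1.07). The other three were nearer to 1. NCU07831 had 94.4 and 141 RPKM and was 1.49-fold lower (1.45 to 1.52), and NCU06279 had 71.0 and 93.9 RPKM and was 1.32-fold lower (1.28 to 1.37). NCU08046 had 126 and 154 RPKM and was 1.22-fold lower (1.19 to 1.26). All 5 were below 0 in the 9 other settings as well, with a median log2 ratio of -0.57. None was 2-fold lower under the deposited scaling, beside 5.52% of all genes.

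The cap-binding side was mixed. eIF4E binds the cap of the message, and 3 genes carry its name. NCU02076, the most abundant of them, stood at 210 RPKM in knockout hyphae and 241 in wild-type hyphae, 1.15-fold lower (1.12 to 1.17). NCU03717 had 73.1 and 43.2 RPKM, 1.69-fold higher (1.61 to 1.78), and the eIF4E3 gene NCU09546 had 23.7 and 17.8 RPKM, 1.33-fold higher (1.25 to 1.43). The minor genes were thus closer in level to the major one in the knockout: NCU02076 exceeded NCU03717 2.87-fold there and 5.58-fold in the wild type. NCU09546 overlaps NCU09547 on the opposite strand by 36 bp, and the use of strand in counting is not stated. NCU00457, eIF4B, which stimulates the helicase eIF4A, had 84.9 and 113 RPKM, 1.34-fold lower (1.30 to 1.37).

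eIF2B reloads eIF2 with GTP and is the target of control when eIF2 is phosphorylated. The gene named for it, NCU11341, was the least abundant member in both libraries, with 1366 reads (11.1 RPKM) in knockout hyphae and 336 reads (5.51 RPKM) in wild-type hyphae. Its fold by reads was 2.01 (1.79 to 2.28), but the pseudocount of 1 RPKM brings the log2 ratio to 0.89, short of 2-fold. It lies 17860 bp from the start of supercontig 6 and overlaps NCU07139 by 57 bp on the same strand. No description in the set names a subunit of eIF2 or the scaffold eIF4G, and their transcripts were not analysed here.

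Over all 14 initiation factors the median log2 ratio was -0.24, with 5 above 0 and 9 below. Of the 7367 eligible genes 4374 were above 0 and 2993 below. At least 2-fold higher was 1 of the 14 (7.14%, beside 16.5% of all genes), and none was 2-fold lower (beside 5.52%). The share of the 14 in the table reads was 0.506% in the knockout (0.504 to 0.508) and 0.459% in the wild type (0.457 to 0.462). With TMM-scaled totals the order turned, to 0.472% for the knockout and 0.492% for the wild type, so the summed share has no firm direction.

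The factors with mitochondrial or bacterial-type names were the other group on the higher side. NCU03737, elongation factor Tu, the bacterial counterpart of eEF1A, had 22613 reads (225 RPKM) in knockout hyphae and 5503 reads (111 RPKM) in wild-type hyphae. It was 2.04-fold higher (1.98 to 2.10), at a log2 ratio of 1.02, just past 2-fold, and is placed at 2252908 to 2254660 of supercontig 5, plus strand. NCU02955, elongation factor G 1, the bacterial-type translocase, had 14048 reads (94.3 RPKM) in knockout hyphae and 3059 reads (41.4 RPKM) in wild-type hyphae. It was 2.27-fold higher (2.19 to 2.37) and is placed at 8597333 to 8599936 of supercontig 1, plus strand. Both calls depend on the scaling: with TMM scaling the log2 ratios were 0.84 and 0.99.

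The initiation factor of this group was higher by less. NCU06103, the mitochondrial translation initiation factor, had 29.3 RPKM in knockout hyphae and 18.7 in wild-type hyphae, 1.57-fold higher (1.49 to 1.65). The release factors come next, and they differed from each other. NCU07021, peptide chain release factor 3 (supercontig 4, minus strand, 4934719 to 4937670), had 8532 reads (50.4 RPKM) in knockout hyphae and 1310 reads (15.6 RPKM) in wild-type hyphae, 3.23-fold higher (3.04 to 3.42). Its log2 ratio of 1.63 was the second highest of the 29 and stayed past 2-fold in all settings. NCU06721, peptide chain release factor 1, had 17.1 and 13.7 RPKM, 1.25-fold higher (1.13 to 1.37), and was the only member whose sign depended on the settings, at -0.02 with length centring against 0.30.

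Bacterial release factor 1 reads stop codons and bacterial release factor 3 is a GTPase that recycles it. Whether NCU07021 and NCU06721 act in mitochondria is not stated by their names, and they were placed here by the bacterial numbering alone. NCU07021 may be a cytosolic release factor, so the highest ratio of the group may not belong to it. The 5 genes of the group had a median log2 ratio of 1.02, with 3 at least 2-fold higher where 16.5% of all genes were. That count was 2 with median or length centring and 1, NCU07021, with TMM scaling or DESeq2 size factors. Of all genes 13.3%, 11.5%, 12.9% and 12.6% were higher in these settings, in that order. The group took 0.0947% of the knockout reads (0.0939 to 0.0955) and 0.0445% of the wild-type reads (0.0438 to 0.0453). The corresponding elongation GTPases of cytosol and mitochondria differed in opposite directions: tef-1 exceeded the EF-Tu gene 74.3-fold by RPKM in the wild type and 16.4-fold in the knockout.

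The remaining 3 members lay close to 1. NCU03061, RLI1, the ATPase that splits ribosomes after termination, had 67.4 RPKM in knockout hyphae and 75.6 in wild-type hyphae, 1.12-fold lower (1.08 to 1.16), and its gene model length behind RPKM differed between the libraries by more than 0.1%. NCU09161, pelota, which frees stalled ribosomes, had 16.99 and 19.98 RPKM, 1.18-fold lower (1.08 to 1.28). NCU11234, named translation initiation protein Sua5, had 27.8 and 36.5 RPKM, 1.31-fold lower (1.23 to 1.40), and overlaps NCU02538 by 46 bp on the same strand. In yeast Sua5 modifies tRNAs, so this member is an initiation factor by its name only.

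Length and abundance were examined because both go with the ratio across all genes. The median log2 ratio of all genes fell from 0.56 in the shortest eighth of gene models to -0.10 in the longest, and the members, 990 to 3871 bp long, are absent from the shortest eighth. Subtracting the median of each length bin left 9 members above 0 and 20 below, with a median of -0.39. By mean RPKM of both libraries, 14 members fell in the most abundant eighth of genes (above 111 RPKM), and 11 of them had a negative ratio, against 50.9% of all genes there. The 3 on the higher side were the genes of eIF5, eIF1 and EF-Tu. The median of these 14 was -0.38, against -0.014 for all genes of that eighth, as a description of these libraries.

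**Figure D3:**
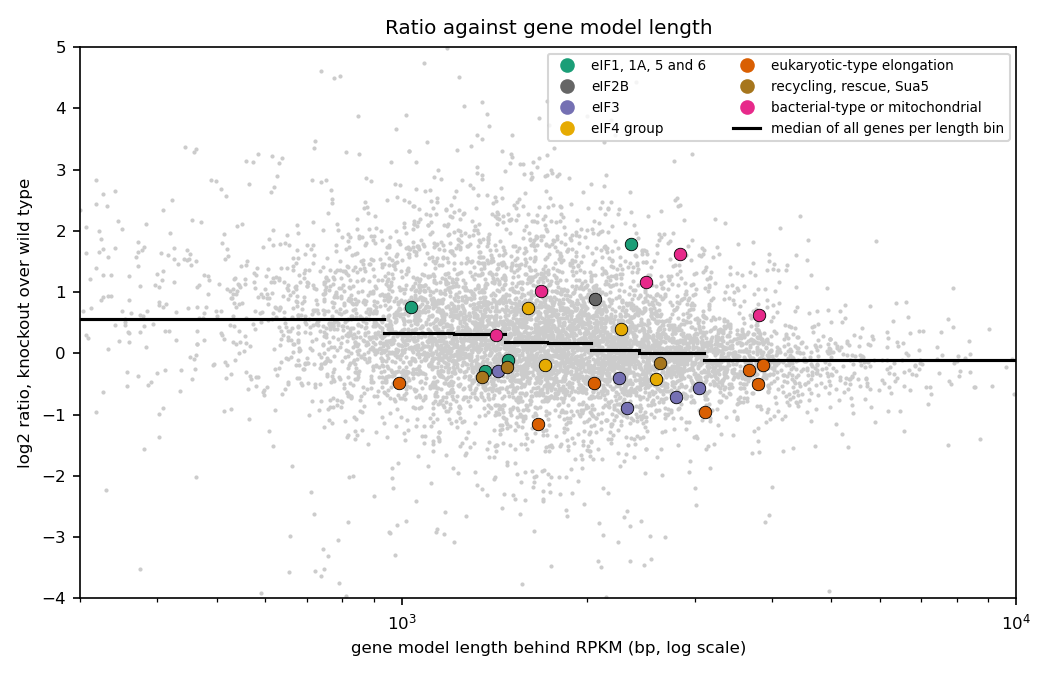
log2 ratio of all eligible genes (grey) and of the translation factors (coloured by role) against gene model length in bp on a log axis, with the median of all genes in each of 8 length bins (black); 67 genes, no member among them, lie outside the axes. Elongation and eIF3 genes lie below the bin medians at every length, and the genes of eIF5, release factor 3 and elongation factor G lie above them among long models.

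The members are spread over 6 supercontigs, and NCU06278 and NCU06279 are the only neighbouring pair. They lie head to head on supercontig 3 with 868 bp between them, one named elongation factor 2 and the other eIF3, and had log2 ratios of -0.19 and -0.40. In 25 of the 29 the genomic span exceeds the length behind RPKM by more than 20 bp, as introns would make it. The other four are the genes of eIF5, eIF-2B, pelota and Sua5.

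Some translation factors carry descriptions outside the wording used to choose the 29, and 9 such genes were taken from the table after it was seen. Among them eukaryotic release factor 1 (NCU00410), which recognises stop codons in the cytosol and is the partner UPF1 binds in other species, stood at 448 RPKM in the knockout (54054 reads) and 178 in the wild type (10645 reads), 2.52-fold higher (2.46 to 2.57). The GTPase gene GUF1 (NCU05927), whose yeast counterpart acts on mitochondrial ribosomes, had 57.4 and 23.3 RPKM, 2.46-fold higher (2.34 to 2.59). These are 2 of 9 (22.2%, beside 16.5% of all genes), and none was 2-fold lower (beside 5.52%). With TMM scaling or DESeq2 size factors 1 of the 9 was 2-fold lower, NCU08952, and with length centring 2 were, NCU08952 (-1.15) and eif5A (-1.06). Of all genes 7.79%, 8.05% and 8.2% were lower in these settings, in that order.

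eif5A, the gene of the hypusine-bearing factor that helps the ribosome through difficult peptide bonds, was on the lower side beside the elongation genes, with 1334 and 2229 RPKM, 1.67-fold lower (1.66 to 1.69). The helicase eIF4A (NCU07420), which unwinds the message for scanning, had 804 and 812 RPKM, and its interval of 0.999 to 1.02 for the fold on the lower side included 1 under the deposited scaling. The gene named eukaryotic initiation factor 4A-12 (NCU01234) had 89.6 and 52.0 RPKM, and GCD7 (NCU08952), a yeast name of an eIF2B subunit, had 43.5 and 78.5. With these 9 added, 6 of 38 factors (15.8%) were 2-fold higher and 1 (2.63%) was lower, near or under the 16.5% and 5.52% of all genes, and the median was -0.19.

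Genes that modify or assist translation factors were listed by name: poly(A)-binding proteins, GCN20, the kinase cpc-3, and the enzymes of hypusine and diphthamide, the modified residues of eIF5A and eEF2. None of the 10 passed 2-fold on the scale used, where 16.5% of all genes were higher and 5.52% lower. Their median was 0.13 (-0.039 with TMM scaling), beside 0.15 (-0.020) for all genes. cpc-3, the Neurospora GCN2 kinase that phosphorylates eIF2, had 21.6 RPKM in knockout hyphae and 43.4 in wild-type hyphae, with a log2 ratio of -0.97, and it was past 2-fold with a pseudocount of 0.1, median centring, TMM scaling and DESeq2 size factors. At the other end NCU09465, a diphthamide biosynthesis protein, had 64.8 and 33.2 RPKM with a log2 ratio of 0.95. The poly(A)-binding protein gene NCU04799 had 71.4 and 93.5 RPKM.

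**Figure D4:**
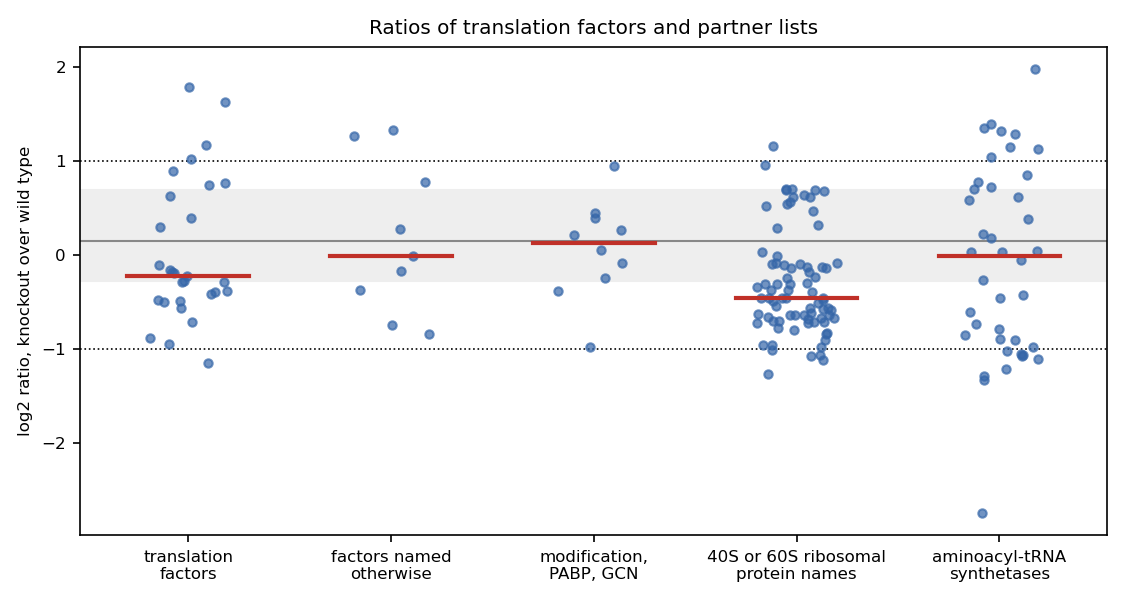
log2 ratio of each gene (points, 1 pooled library per strain) and the median (red bar) for translation factors, 9 factors named otherwise, 10 genes that modify or assist factors, 80 genes named 40S or 60S ribosomal protein (3 of them described as mitochondrial) and 40 named tRNA synthetase or ligase, with the median and interquartile range of all eligible genes (grey) and 2-fold either way (dotted). The medians are -0.22, -0.01, 0.13, -0.46 and -0.01, and the synthetases spread widest, from -2.74 to 1.97.

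The ribosome and the tRNA synthetases give the setting. Of 80 genes named 40S or 60S ribosomal protein, 3 are described as mitochondrial (NCU02803, NCU02804 and NCU00564). The 80 had a median log2 ratio of -0.46, and so did the 77 others. Some of the 77 share a protein name with a far more abundant gene. Named for L2, for example, are NCU02757 at 103 RPKM in the wild type and NCU00413 at 1997. Which of the 77 are cytosolic is not stated by these names, so the values are those of the list. At least 2-fold higher was 1 of the 80 (1.25%, beside 16.5% of all genes) and 5 were lower (6.25%, beside 5.52%). With TMM scaling the counts were 0 and 11 of 80 with a median of -0.64, beside 12.9% and 7.79% of all genes. With length centring the counts were 0 and 26 with a median of -0.84, beside 11.5% and 8.2%. The elongation factors, at -0.49 in the deposited scaling, had -0.53 with length centring. crp-2, of the small subunit protein S14, was lowest at -1.27. NCU02757, named for L2, was highest at 1.16, and was below 2-fold with TMM scaling or length centring.

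Of 40 genes matching a tRNA synthetase or ligase, 8 were higher (a share near the 16.5% of all genes) and 9 lower (22.5%, beside 5.52%). With TMM scaling the counts were 5 and 13, beside 12.9% and 7.79% of all genes. The list includes a gene with the symbol tim10 and a tRNA ligase (NCU04410). Some amino acids have genes on both sides, for example the isoleucyl-tRNA synthetase genes NCU03575 (-1.33) and NCU00920 (1.15). Which genes act in the cytosol and which in mitochondria is not stated by these names, so the values are those of the list. The lowest was the aspartyl-tRNA synthetase gene NCU00915, with 54.9 against 373 RPKM, and the highest the glutamyl-tRNA synthetase gene NCU00466, with 87.3 against 21.5 RPKM, which overlaps a neighbour.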

How the data were processed

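The authors deposited, for each gene and library, a raw read count and an RPKM value, per the file headers; RPKM divides reads by gene model length and library total. The submitters' processing notes list Bowtie 0.12.2. Build, annotation, counting method and use of strand: not given in the sources used here. Columns were assigned to strains by the initials of the sample titles. Members and lists were chosen with earlier results of these data known.

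Library totals of 59645570 (knockout) and 29546475 reads (wild type) were recovered from reads, RPKM and genomic span, and 94.4% and 95.4% of them are in the table. A log2 ratio has a pseudocount of 1 RPKM. A gene was eligible at 5 RPKM in at least 1 library and called from 2-fold on that scale. Printed folds divide reads by these totals, with 95% Clopper-Pearson intervals. Reads were counted without molecular identifiers and need not be independent molecules, so intervals cover counting error only. A count of 0 allows 3 reads, 0.0503 and 0.102 RPKM for a 1 kb gene. 8930 identifiers matched RefSeq (NC12), used for names only; no sequence was used.

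Named genes were to be all members past 2-fold, the extremes of each role and the core factors; all 29 are given. Of the partner lists, factors past 2-fold and the extremes were to be named, and NCU04799, NCU01234, NCU08952, eif5A and NCU07420 were chosen after their values were seen. Ratios used Python 3.11.15, pandas 2.3.3 and SciPy 1.17.1, and TMM factors came from edgeR 4.0.16 in R 4.3.3; DESeq2 size factors were computed by the median of ratios. The code for the calls was run on simulated data with planted changes well past 2-fold and counting error alone. That run cannot speak to variation between cultures or to calls near 2-fold. The alternatives were pseudocounts of 0.1 and 5, no filter and 20 RPKM, median centring, TMM, DESeq2 size factors, centring in 8 bins of length, and reads over table reads.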

Additional observations from a re-analysis of the deposited data

How the results depend on the processing

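Of the 29 members, 28 kept their sign in the main and 9 other settings, the exception being NCU06721 (-0.02 with length centring). The filter at 20 RPKM leaves 25 members, without NCU06278, NCU06721, NCU09161 and NCU11341. NCU00366, NCU07021 and tef-1 stayed past 2-fold in all of them, and 4 members crossed 2-fold in some (NCU02955, NCU03737, NCU07380 and cot-3). The median of the members, -0.22, was -0.29 with a filter at 20 RPKM, -0.37 with median centring, -0.39 with TMM scaling, -0.42 with DESeq2 size factors and -0.39 with length centring. Members at least 2-fold lower, 1 in the main setting, numbered 3 with median centring, 3 with TMM scaling and 3 with DESeq2 size factors. The lower share of all genes, 5.52% in the main setting, was 7.43%, 7.79% and 8.05% there. Members at least 2-fold higher, 4 in the main setting, numbered 2 with TMM scaling and 2 with DESeq2 size factors. The higher share of all genes, 16.5% in the main setting, was 12.9% and 12.6% there. Without the 5 members named bacterial-type or mitochondrial, a choice made after seeing the data, 1 was higher and 1 lower, with a median of -0.29. By construction, median centring, TMM scaling and size factors lower all ratios by nearly the same amount; the cause of the other shifts was not tested. With 1 library per strain no replicate could be left out. No paired analysis was possible because each strain has 1 pooled library.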
